A study of Mus musculus with 6 samples.

Results

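A set of 10 genes of the lymphotoxin and NF-κB pathway and of stromal adhesion were followed across the stromal cells of the mouse omentum: the adhesion genes *Vcam1*, *Icam1* and *Madcam1*, the mucin-like glycoprotein gene *Pdpn*, the receptor genes *Ltbr* and *Tnfrsf1a*, the ligand gene *Tnfsf11*, and the noncanonical NF-κB genes *Map3k14*, *Relb* and *Nfkb2*. They were taken by name from a list, and all 10 were found among 23352 gene symbols. Of these, 8 reached at least 1 FPKM in some library, as did 12904 genes in all. *Madcam1* and *Tnfsf11* did not.

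RNA was sequenced from 6 populations sorted from the omentum, a fatty fold of the peritoneum that carries lymphoid clusters called milky spots, of WT C57BL/6 mice. All 6 lacked CD45, the marker of blood-derived cells. P1, P2 and P3 were CD140a+CD105+, and their activity of aldehyde dehydrogenase (ALDH) was high, intermediate and low in that order. Among CD140a+ cells without CD105, P4 had intermediate and P5 low activity. P6 had low CD140a and was ALDH+. No mouse was treated. The age and number of mice behind a library were not given in the sources used here. Each population had 1 library, so differences between populations had no replicate check and no test of conditions was made. The 95% intervals given for ratios are exact binomial intervals on reads estimated from the deposited values, and they cover counting error only.

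Estimated depth ran from 36.97 M reads in P6 to 61.75 M reads in P5. The sorting markers followed the gates. *Pdgfra*, which encodes CD140a, was at 117 to 154 FPKM in P1 to P5 and 5.36 FPKM in P6. *Eng*, which encodes CD105, was at 42.6 to 52.4 FPKM in P1 to P3 and at most 0.728 FPKM in the others. *Ptprc*, which encodes CD45, was at most 0.755 FPKM. Summed over 11 mesothelial marker genes, levels were 76.6, 101, 156, 993, 799 and 3232 FPKM in P1 to P6, and all 11 were lower in P1 to P3 than in P4 and P5. The 10 pancreatic acinar genes listed summed to 2.53, 216, 19.4, 1180, 133 and 1724 FPKM in P1 to P6. These 10 made up at most 0.448% of all FPKM, in P6. *Col3a1* was listed at 0 in P2 and at 2100 to 3390 FPKM elsewhere, so a listed 0 can be a failed estimate.

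As background, lymphotoxin organizes the stroma of developing lymph nodes. The authors of the study state that milky spots can form without lymphotoxin-bearing inducer cells acting on mesenchymal cells. Lymphotoxin on lymphoid cells engages the lymphotoxin β receptor (LTβR) on stromal cells, which stabilizes the kinase NIK, the product of *Map3k14*. NIK drives the processing of the p100 protein encoded by *Nfkb2* into p52, which enters the nucleus with RELB, while TNF receptor 1 signals mainly through the canonical branch. Stromal organizer cells are known for VCAM-1, ICAM-1, podoplanin and, in some tissues, MAdCAM-1 and RANK ligand. RNA levels do not measure this protein processing.

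DNA sites for NF-κB dimers, called κB sites, were looked for in the RefSeq promoter windows of GRCm38.p6, which run from 250 bases before to 50 bases after each annotated start. Windows were held for 8 of the 10 genes, *Vcam1* and *Relb* being the others. The general 10-base κB consensus, on either strand, matched in 4.51% of 32851 windows, and in those of 2 of the 8 genes, *Madcam1* and *Nfkb2*. The 32851 windows left out 1 chromosome, which holds none of the 10 genes. Counted by window, 4 of 10 held a match, and 3 of these 4 were windows of *Nfkb2* at different annotated starts. Of these 3, 2 overlapped and shared 1 matching site. Stretches are shown for both genes because the consensus stood before an adhesion gene that was near 0 here and before a pathway gene that was well detected. Capitals mark the matches, and overlapping matches are run together. The *Madcam1* stretch is chr10:79664449-79664508 on the plus strand, 110 to 51 bases before the start. The *Nfkb2* stretches, also on the plus strand, are chr19:46304688-46304717 and chr19:46304716-46304736, 49 to 20 and 21 to 1 bases before 1 of its annotated starts.
Madcam1: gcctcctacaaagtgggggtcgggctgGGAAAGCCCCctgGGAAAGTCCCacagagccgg
Nfkb2, farther: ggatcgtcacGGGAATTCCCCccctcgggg
Nfkb2, nearer: ggggccgaaaGGGGCTTTCCc
A match describes letters only, and the other 6 windows simply lacked these letters.

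Of the receptor genes for lymphotoxin and TNF, *Ltbr* and *Tnfrsf1a* were high in every CD140a+ population and lower in P6. *Tnfrsf1b*, another TNF receptor gene given below, was higher in P6 than in each of P1 to P3. *Ltbr* (chromosome 6, 125306571 to 125313885, GRCm38) was at 49.955, 46.6, 41.4, 37.0, 34.6 and 24.7 FPKM in P1 to P6. The order of the populations was therefore the order of their numbers, and every neighbouring pair differed beyond counting error. The range was modest, with P1 2.02-fold over P6. *Tnfrsf1a*, which encodes TNF receptor 1 and lies nearby on the same chromosome (125349362 to 125362484), was at 204, 196, 198, 164, 160 and 80.1 FPKM. It had the highest level of the 10 genes in P1 to P5 on the FPKM scale, which corrects for transcript length. P3 and P2 did not differ beyond counting error (1.01-fold, 0.991 to 1.03). P6 was at 0.489 of P4 (0.475 to 0.504) and 0.501 of P5 (0.486 to 0.516), so that the ratio to P4 lay just past 2-fold and that to P5 just short of it. In bulk samples, fewer cells that express a gene and less RNA per cell cannot be told apart.

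The ligands for these receptors were low, as was *Tnfsf11* among the 10 genes. *Ltb*, which encodes lymphotoxin β, was at 0.796, 0.725, 0.369, 0.248, 0.0181 and 0.454 FPKM. *Lta* and *Tnf* were at most 0.224 FPKM. *Cd79b*, a B cell gene, was at 2.16, 2.14, 0.661, 0.496, 0.162 and 1.14 FPKM, which is the same order of populations as for *Ltb*, and its part in the *Ltb* values was not tested. Of 16 ligand genes of the TNF family listed, 6 reached 1 FPKM. *Tnfsf13*, which encodes APRIL, was among them at 2.27, 8.88, 13.5, 20.4, 27.3 and 22.2 FPKM. *Tnfsf15* was at 2.78 FPKM in P5 and 1.32 FPKM in P4, and at most 0.477 FPKM in the others.

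*Tnfsf11* (chromosome 14, 78277445 to 78308043) encodes RANK ligand, a cytokine that organizer cells of developing lymph nodes present to lymphoid cells. It was found mainly in P3. Levels were 0.0828, 0.183, 0.696, 0.00838, 0.0795 and 0 FPKM in P1 to P6, which correspond to 9, 23, 86, 1, 10 and 0 estimated reads. P3 was 3.80-fold over P2 (2.38 to 6.32) and 8.75-fold over P5 (4.54 to 18.9). P2 was 21.8-fold over P4, but with 1 read in P4 the interval ran from 3.55 to 899. Against a floor of 3 reads in the P6 library, P3 was 17.47-fold higher, and the counting interval of P3 over P6 had a lower limit of 13.9. Both values take the listed 0 in P6 as a true absence of reads, which was not checked. P2 and P1, and P1 and P5, did not differ beyond counting error. All of these values lay under 1 FPKM, so the gene enters none of the counts of 2-fold differences.

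The receptors of RANK ligand had a different distribution. *Tnfrsf11b*, which encodes osteoprotegerin, the soluble decoy receptor that binds RANK ligand, was at 5.97, 6.10, 1.38, 4.77, 0.952 and 27.2 FPKM. It was thus lower in the ALDH-low population of each CD105 gate and highest in P6, where *Tnfsf11* was listed at 0. *Tnfrsf11a*, which encodes the signaling receptor RANK, was at 0.0349 to 0.889 FPKM.

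**Figure D1:**
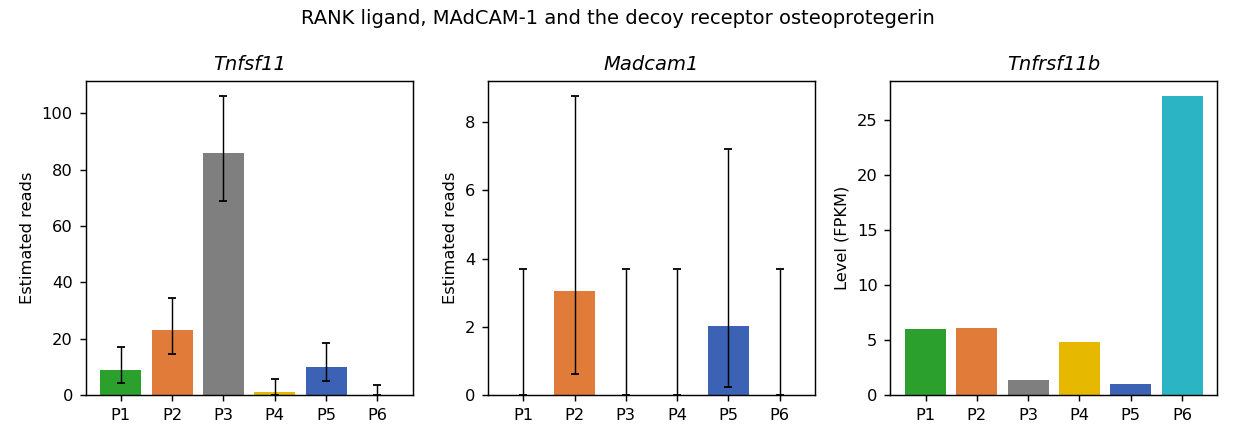
Bars give estimated reads of *Tnfsf11* and *Madcam1* and the FPKM of *Tnfrsf11b* in P1 to P6, 1 library each; error bars on reads are 95% Poisson intervals for counting error. *Tnfsf11* stands at 86 reads in P3, *Madcam1* at no more than 3 reads anywhere, and *Tnfrsf11b* at 27.2 FPKM in P6.

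The 3 noncanonical NF-κB genes shared a pattern in the deposited values: each was lowest in P1 and highest in P5, although *Map3k14* was lowest in P6 after division by *Gapdh* or quantile normalization. *Map3k14* (chromosome 11, 103219762 to 103267472), which encodes NIK, was at 5.29, 6.77, 8.87, 11.9, 14.5 and 6.30 FPKM. All 3 CD105+ populations lay below both CD105- populations (not after division by *Gapdh*), and P2 and P6 did not differ beyond counting error (1.07-fold, 0.991 to 1.16). P6 was at 0.435 of P5 (0.404 to 0.467). *Nfkb2* (chromosome 19, 46304320 to 46312385), some of whose κB matches are printed above, was at 21.6, 32.1, 46.3, 40.9, 55.9 and 35.6 FPKM. Its groups by CD105 overlapped, with P3 above P4, and P2 was 1.49-fold over P1 (1.43 to 1.54).

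*Relb* (chromosome 7, 19606217 to 19629438), which encodes the partner of p52, was at 12.3, 14.4, 18.9, 18.8, 24.7 and 20.4 FPKM. P3 and P4 did not differ beyond counting error (1.002-fold, 0.945 to 1.06). Being lowest in P1 was common, at 37.1% of the 12904 genes, and 24.2% were highest in P5. With values divided by *Gapdh*, which was itself at 214 to 224 FPKM in P1 to P3 and 270 to 326 FPKM in P4 to P6, *Map3k14* was still highest in P5 and the other two were highest in P3.

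**Figure D2:**
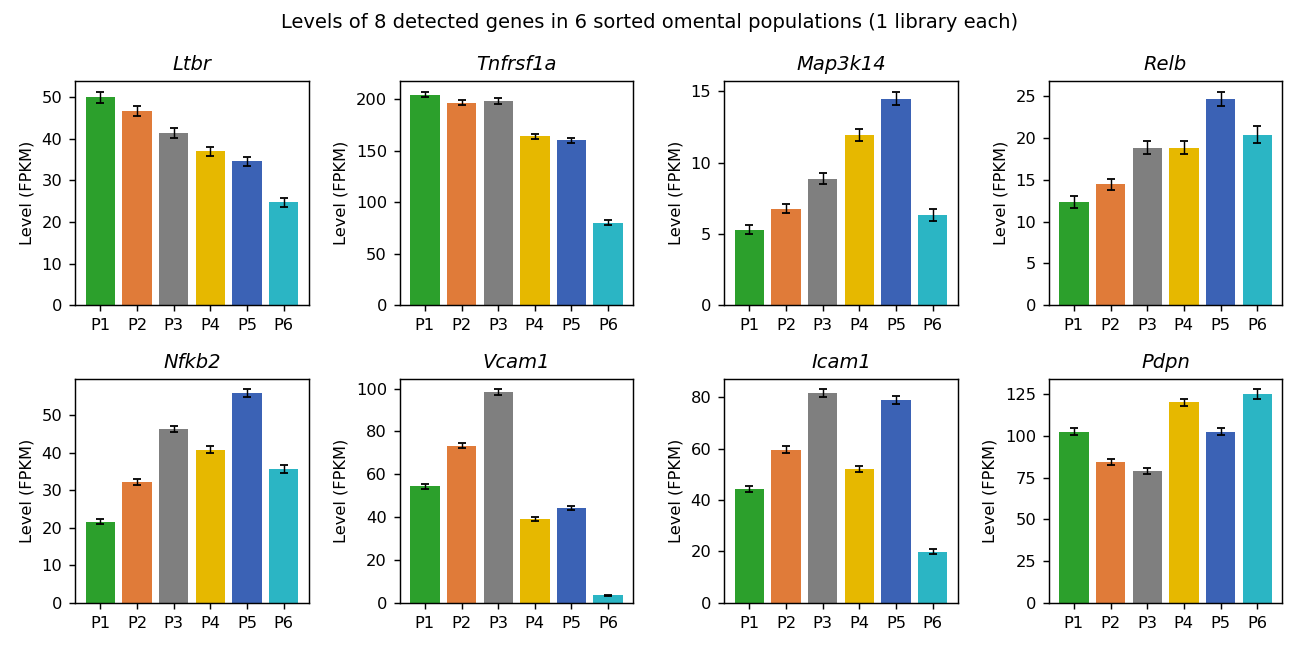
FPKM of the 8 genes that reached 1 FPKM, in P1 to P6 (1 library each), with 95% counting intervals as error bars. *Ltbr* steps down from 49.955 in P1 to 24.7 in P6, *Map3k14*, *Relb* and *Nfkb2* are lowest in P1 and highest in P5 (after division by *Gapdh*, *Relb* and *Nfkb2* are highest in P3 and *Map3k14* lowest in P6), and *Vcam1* is at 3.54 in P6.

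The surface adhesion genes were separated by P6. *Vcam1* (chromosome 3, 116109949 to 116129688) encodes the ligand of α4 integrins on lymphocytes. It was at 54.5, 73.3, 98.2, 39.02, 44.2 and 3.54 FPKM. Every CD105+ population was above every CD105- population, and P6 was far below all. P4 was 11.02-fold over P6 (9.995 to 12.2), and P3 was 2.22-fold over P5 (2.17 to 2.28). Every neighbouring pair in this order of levels differed beyond counting error.

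*Icam1* (chromosome 9, 21015985 to 21028817) encodes the ligand of β2 integrins. It was at 44.3, 59.5, 81.5, 52.0, 78.9 and 19.9 FPKM. It was high in both ALDH-low populations, P3 being 1.03-fold over P5 (1.01 to 1.06), and its CD105+ and CD105- populations overlapped. P6 was at 0.383 of P4 (0.363 to 0.404) and 0.252 of P5 (0.239 to 0.265). Of the integrin genes on the leukocyte side, *Itga4*, *Itgb7*, *Itgal* and *Itgam* were each under 1 FPKM throughout, and *Itgb2* was at 0.237 FPKM in P5 to 1.09 FPKM in P6.

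*Madcam1* (chromosome 10, 79664559 to 79668537) encodes the ligand of α4β7 integrin, best known on vessels of mucosal tissue. It was at 0.0398 FPKM in P2 and 0.0265 FPKM in P5, which correspond to 3 and 2 estimated reads, and was listed at 0 in the other libraries. A floor of 3 reads corresponded to 0.0393 to 0.0656 FPKM, depending on the library, so that no difference between populations was detectable at this depth. Of 14 endothelial marker genes, 5 reached 1 FPKM: *Eng*, which was part of the gate, *Tek*, *Kdr*, *Esam* and *Egfl7*. *Kdr* and *Esam* were highest in P6, at 46.9 and 62.04 FPKM, and *Tek* in P1, at 22.7 FPKM. The defining genes *Pecam1* and *Cdh5* were at most 0.992 and 0.343 FPKM.

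*Pdpn* (chromosome 4, 143267431 to 143299564) encodes podoplanin, a glycoprotein of reticular, lymphatic endothelial and mesothelial cells. It was at 102, 84.6, 78.8, 120, 103 and 125 FPKM and varied least of the 8 genes, with P6 1.59-fold over P3. P5 and P1 did not differ beyond counting error (1.0008-fold, 0.973 to 1.03). P6 was 1.04-fold over P4 (1.01 to 1.07), but after division by *Gapdh* P6 was no longer highest. It was the gene of the 8 that was highest in P6, where mesothelial markers also summed highest, at 3232 FPKM, and their part in this was not tested.

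Along the ALDH axis, comparisons asked whether levels changed from ALDH-high to ALDH-low cells within a CD105 gate. In P1/P2, P2/P3 and P4/P5, 0 of the 8 genes were at least 2-fold apart, against 5.19%, 3.66% and 5.37% of genes of at least 1 FPKM. Smaller differences were ordered. *Vcam1*, *Icam1*, *Relb*, *Nfkb2* and *Map3k14* were in the order P1 below P2 below P3 and also P4 below P5, which is 5 of 8 against 30.7% of 12904 genes. The same 5 held this order under all 4 other scalings of the libraries, where the share of all genes was 19.1% to 38.2%. *Pdpn* and *Ltbr* had the opposite order, 2 of 8 against 16.3%. *Tnfrsf1a* had neither. The P2/P3 and P4/P5 comparisons share no library. All 10 acinar genes listed were at least 2-fold higher in P2 than P3, with sums of 216 and 19.4 FPKM. The same held in P4 over P5, with sums of 1180 and 133 FPKM. In P1/P2 all 10 were at least 2-fold lower in P1. The part of acinar RNA in the differences along the ALDH axis was not tested. In P2/P3 the median log2 ratio of the 8 genes was -0.38, against -0.03 over all genes. In P4/P5 it was -0.23 against -0.04. *Icam1* had the lowest P4/P5 ratio, 0.658 (0.639 to 0.678), and *Nfkb2* the lowest P2/P3 ratio, 0.694 (0.673 to 0.715).

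Pathway genes outside the 10 were counted in the same way, from lists that were drawn up with earlier results of these data known. Of 10 regulators of the noncanonical branch, 8 were higher in P3 than P2 and in P5 than P4, against 42.4% of 12904 genes. *Birc2* and *Birc3* encode the ubiquitin ligases that, with TRAF2 and TRAF3, lead NIK to degradation. *Birc2* was at 15.4, 18.9, 39.2, 36.7, 63.6 and 35.5 FPKM, and *Birc3* at 17.4, 28.5, 50.1, 22.6, 42.4 and 13.5 FPKM. *Traf1* was at 2.99 to 8.65 FPKM. The *Birc2* difference between P2 and P3 was the single one of the 10 that passed 2-fold in P1/P2, P2/P3 or P4/P5.

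Of 23 canonical NF-κB genes measured, 16 were higher at lower ALDH in both gates, against the same 42.4% of all genes. *Tnfaip3*, which encodes the inhibitor A20, was at 7.89, 9.62, 18.3, 22.1, 39.6 and 6.75 FPKM. *Nfkbie*, which encodes an inhibitor that holds NF-κB in the cytoplasm, was at 7.97, 15.1, 28.6, 23.8, 36.0 and 10.2 FPKM. *Nfkb1* and *Rela*, which encode the canonical dimer, were at 23.8 to 28.8 and 32.4 to 48.4 FPKM. These counts moved with scaling, from 7 to 9 of 10 regulators and from 12 to 18 of 23 canonical genes, while the share of all genes ran from 27.6% after division by *Gapdh* to 49.6% with a common sum.

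Of 20 further TNF-family receptors, 11 reached 1 FPKM and 8 of these were higher at lower ALDH in both gates, against 42.4% of all genes. *Tnfrsf19* was at 0.340, 4.52, 6.99, 9.71, 16.8 and 6.94 FPKM. *Ngfr*, which encodes the p75 receptor, was at 0.624, 4.66, 13.3, 1.71, 5.34 and 1.48 FPKM. *Tnfrsf1b*, which encodes TNF receptor 2, was at 15.7, 21.1, 25.5, 42.3, 49.9 and 40.6 FPKM, so that it was lower in CD105+ than CD105- cells while *Tnfrsf1a* was higher.

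**Figure D3:**
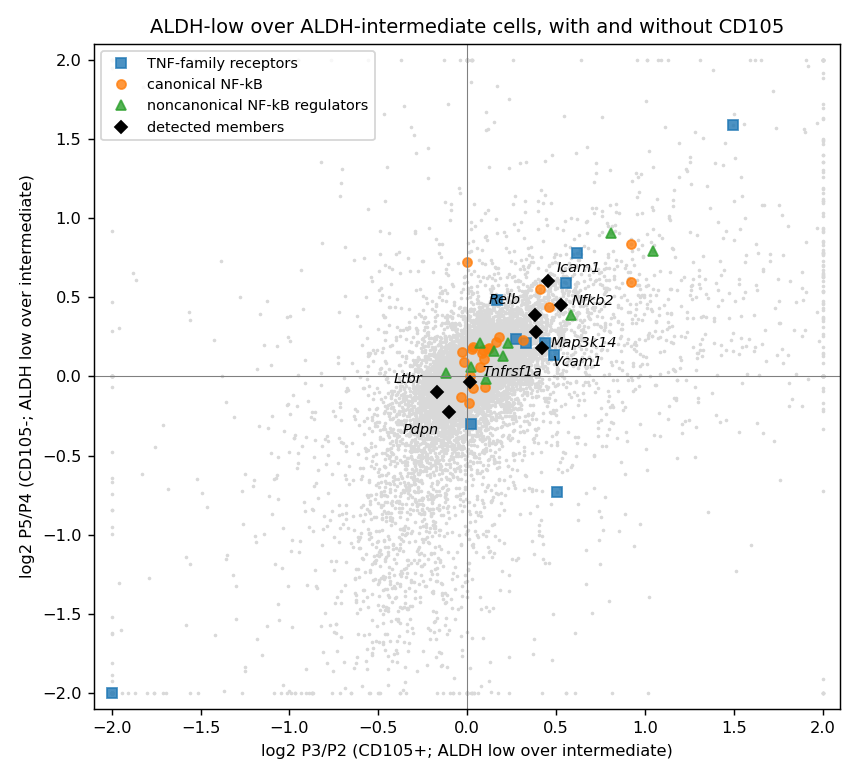
Each point is a gene; the axes are log2 ratios of FPKM + 0.1 for P3 over P2 (CD105+) and P5 over P4 (CD105-), and values beyond 2 in either direction are drawn at 2. Of the 8 black members, 5 lie at the upper right and *Pdpn* and *Ltbr* at the lower left, among all genes of at least 1 FPKM in grey.

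Across the CD105 gate at matched ALDH activity, no member passed 2-fold in P2/P4 (12.5% of genes did) and *Vcam1* alone did in P3/P5 (13.6%). *Vcam1* was also the nearest to 2-fold in P2/P4, at 1.88 (1.83 to 1.93). The genes *Vcam1*, *Ltbr* and *Tnfrsf1a*, were higher in each of P1 to P3 than in P4 and P5, which is 3 of 8 against 18% of 12461 genes. *Map3k14* and *Pdpn* were lower in each, 2 of 8 against 37.9%, so that 5 of 8 were separated either way against 55.9%. For *Pdpn* this rests on P1 and P5, which did not differ beyond counting error, and it was lost for *Pdpn* under median of ratios, quantile and *Gapdh* scaling, and for *Map3k14* under *Gapdh* scaling. *Map3k14* in P2 was at 0.568 of P4 (0.534 to 0.603), and in P3 at 0.612 of P5 (0.581 to 0.646).

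*Relb* and *Nfkb2* were lower in CD105+ cells, with log2 ratios of -0.38 and -0.35 in P2/P4, but higher by 0.09 and 0.13 after division by *Gapdh*, which moved the median of all genes by 0.47. Mesothelial marker sums were also lower in P2 than P4, and acinar genes summed to 216 and 1180 FPKM in these libraries. The part of either in the ratios was not tested. The chemokine genes *Ccl19* and *Cxcl12* were, like *Vcam1*, higher in CD105+ cells, at 90.8 to 204 against 39.8 and 46.0 FPKM and at 366 to 597 against 117 and 144 FPKM. *Cxcl13* was higher at low ALDH, at 2090 FPKM in P3 and 3464 FPKM in P5.

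P6 differed most from the other populations. In P6/P4, *Vcam1*, *Icam1* and *Tnfrsf1a* were at least 2-fold lower in P6, 3 of 8 against 7.21% of genes, but *Tnfrsf1a* was not past 2-fold with a common sum, after division by *Gapdh* or after quantile normalization. In P6/P5, *Vcam1*, *Icam1* and *Map3k14* were, 3 of 8 against 6.87%, but *Map3k14* was not after division by *Gapdh*. The 2 comparisons share the P6 library. No member was 2-fold higher in P6, as 9.13% of genes were in P6/P4 and 10.4% in P6/P5. The median log2 ratio of the 8 genes was -0.75 in P6/P4 and -0.82 in P6/P5, against 0.05 and 0.01 over all genes. *Vcam1*, *Icam1*, *Ltbr* and *Tnfrsf1a* were lower in P6 than in each of P1 to P5, 4 of 8 against 25.6%. *Pdpn* was higher in P6 than in each, 1 of 8 against 37.7%, so that 5 of 8 lay outside the range of P1 to P5 against 63.3%. *Relb* did not follow them, being 1.08-fold higher in P6 than P4 (1.01 to 1.16) and at 0.826 of P5 (0.776 to 0.879). P6 was also the shallowest library, and of the 11 mesothelial markers 10 were at least 2-fold higher there than in P4 and in P5. So were 6 of 10 adipocyte genes, 4 of 9 myeloid, 4 of 8 mural and 3 of 14 endothelial genes. Going the other way in both comparisons were 3 mural genes (*Pdgfrb*, *Myh11* and *Notch3*) and 1 endothelial gene (*Tek*), at least 2-fold lower in P6. In P6/P4 this also held for 1 adipocyte gene (*Pparg*), and no myeloid gene was 2-fold lower in either comparison. *Cfd*, an adipocyte gene, was at 114 FPKM in P6 and at most 0.337 FPKM elsewhere, and *Csf1r*, a macrophage gene, at 11.6 FPKM in P6 and at most 1.66 FPKM elsewhere. Other genes of their lists did not follow. *Pparg* was at 1.43 FPKM in P6 and 2.30 to 12.0 FPKM elsewhere, and *Fabp4* at 179 FPKM in P6 and 349 FPKM in P5. Of the myeloid list, *Cd14* was at 21.2 FPKM in P6 and 29.7 FPKM in P3, and *S100a8* at 0 and 4.77 FPKM. The 10 acinar genes were at least 2-fold higher in P6 than in P5, and none was in P6/P4. The part of depth or of any of these genes in the P6 differences was not tested.

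**Figure D4:**
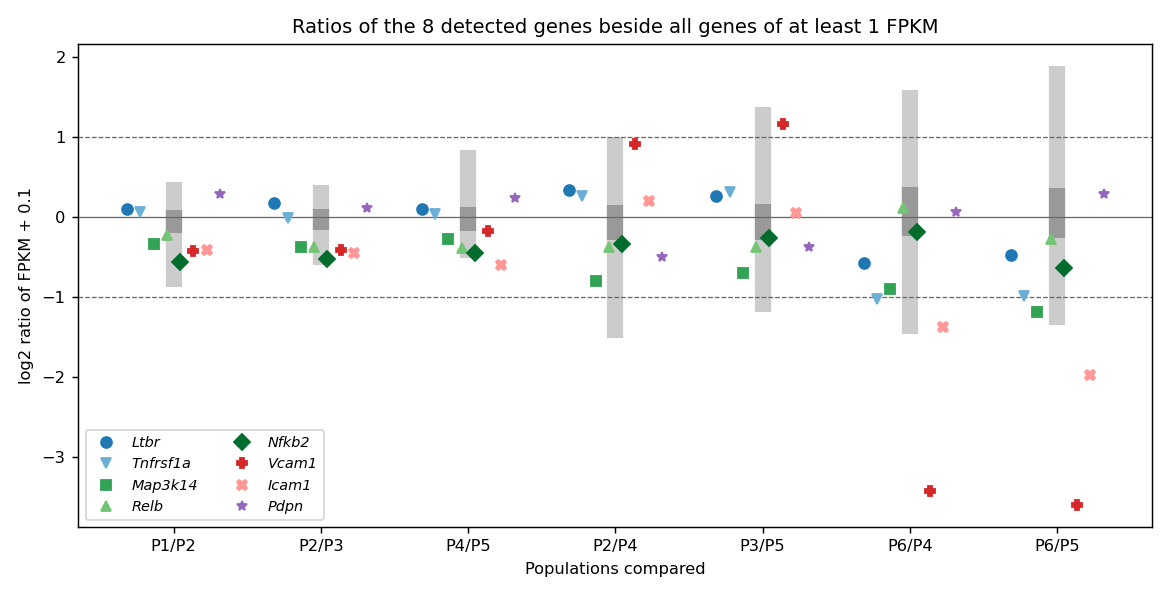
Symbols give log2 ratios of FPKM + 0.1 for the 8 genes in 7 comparisons; grey bars span the middle 50% (dark) and 90% (light) of all genes of at least 1 FPKM, and dashed lines mark 2-fold. *Vcam1* lies at -3.43 and -3.60 in P6/P4 and P6/P5, and the P2/P4 signs of *Relb* and *Nfkb2* reverse after division by *Gapdh*.

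For each of the 8 genes, the genes whose levels ran most like it were found by the root mean square difference of centred log2(FPKM + 1) over 6 libraries, among 9789 genes of at least 5 FPKM. This likeness is a description over 6 points. For *Vcam1* these were *Epas1* (0.111), *Vegfc* (0.174) and *Cyp1b1* (0.189). *Epas1*, which encodes the hypoxia-inducible factor HIF-2α, was at 48.6, 67.2, 74.2, 31.2, 33.0 and 2.90 FPKM. For *Icam1* they were *Lyn* (0.115), *Plekhg1* (0.124) and *Hes1* (0.162), the last a target of Notch signaling.

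The closest genes to *Map3k14* were *Etv5* (0.0585), *B4galt5* (0.0887) and *Nudt4* (0.0969), those to *Nfkb2* were *Tbc1d1* (0.0715), *Ifi47* (0.0765) and *Vps13c* (0.0815), and those to *Relb* included *Sumo3* (0.0469) and *Rfx5* (0.0520). *Ltbr* ran closest to *Rps15a* (0.0287), *Sav1* (0.0340) and *Layn* (0.0412), *Tnfrsf1a* to *Cnrip1* (0.0468), *Mmp14* (0.0474) and *Man2a2* (0.0610), and *Pdpn* to *Nrd1* (0.0404), *Hscb* (0.0470) and *Glud1* (0.0556). No gene of the 10 was among the closest 3 of another.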

How the data were processed

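The authors deposited FPKM values per gene (fragments per kilobase of transcript, scaled to the reads mapped), 1 table per library, from NEBNext Ultra libraries read as 76-base single ends. The submitters' processing notes name TopHat2 2.0.7, Cufflinks 2.1.1 and mm10; their roles and the annotation were not given in the sources used here. Of 23847 rows, 495 repeated a symbol and were summed, leaving 23352. Genes needed at least 1 FPKM in the higher library; ratios used FPKM + 0.1 and a 2-fold threshold. Depth, and from it reads, was estimated from steps in low values of 3316 single-transcript genes (GENCODE M21, effective length less 200 bases): 57.8% to 62.7% of low values lay within 0.05 of a whole read, against 10% by chance. Procedures were tested on simulated data. With 1 library per population no test was possible. Named genes were the 10 members, the 3 closest to each by profile (1 is not reported here), and the most variable or partner genes of fixed lists. Members and lists were chosen with earlier results of these data known. Scalings, pseudocounts, thresholds, minimums and repeated symbols were varied. Scripts ran in Python 3.11.15; values came from pandas 2.3.3 and numpy 2.4.6, intervals from scipy 1.17.1, plots from matplotlib 3.10.9.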

Additional observations from a re-analysis of the deposited data

Results flagged for a closer look

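Of the 8 genes that reached 1 FPKM, *Tnfrsf1a* was the one whose ALDH comparison differed in sign between the CD105 gates. Its log2 ratio was -0.01 in P2/P3 and 0.03 in P4/P5. The difference between the gates was not tested, since each population had 1 library. The P2/P3 ratio, 0.991 (0.973 to 1.01), included no difference within counting error, and both signs changed under some scalings.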

How the results depend on the processing

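No paired analysis was possible because every group held 1 library. Of the counts of members 2-fold apart, P2/P3 went from 0 to 1 with no minimum FPKM (*Tnfsf11*), and P4/P5 from 0 to 1 at 1.5-fold (*Icam1*). P2/P4 went from 0 to 1 after division by *Gapdh* or quantile normalization (*Vcam1*) and with no minimum (*Tnfsf11*), and to 2 at 1.5-fold. P3/P5 went from 1 to 2 at 1.5-fold or with no minimum, and to 0 at 3-fold. P6/P4 went from 3 to 1 at 3-fold (*Vcam1*), and P6/P5 from 3 to 5 at 1.5-fold. Members with P1 to P3 all above or all below P4 and P5 went from 5 to 3 after division by *Gapdh*. The other 80 alternative counts stayed within 1.5 times. Of 481 recomputed log2 ratios, 9 changed sign, 6 of them after division by *Gapdh*, and none belonged to a member past 2-fold. However, 115 of the 481 lay outside the counting interval of the ratio from the deposited values, and 366 did not. A difference beyond counting error can therefore be smaller than the effect of scaling. Scaling by the median of ratios moved the log2 ratio of *Icam1* in P3/P5 from 0.05 to 0.13, and the median of all genes there by 0.09. Division by *Gapdh* moved the median log2 ratio of all genes by 0.03 in P1/P2 to 0.53 in P3/P5, and quantile normalization by 0.11 in P2/P4. For *Tnfsf11* and *Madcam1*, depth limits what can be seen.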

Other observations

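Of 6 tested genes for partners of podoplanin, 3 were at least 2-fold lower in CD105+ than CD105- cells, against 7.63% of genes in P2/P4 and 6.29% in P3/P5. *Ezr*, which encodes the cytoskeletal linker ezrin, was at 10.1, 10.7, 24.1, 165, 169 and 168 FPKM in P1 to P6. *Cd44*, which encodes a hyaluronan receptor that binds podoplanin, was at 15.6, 15.7, 31.3, 73.8, 106 and 28.9 FPKM. *Cd9* was at 27.3, 56.7, 66.0, 123, 168 and 131 FPKM. All 3 were at least 2-fold lower in P2 than P4 and in P3 than P5, while *Pdpn* itself was not 2-fold apart in either.

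*Sele*, which encodes E-selectin, was low but highest in the ALDH-low populations, at 2.28 FPKM in P3 and 2.65 FPKM in P5 against at most 0.811 FPKM elsewhere. *Chst4*, which encodes a sulfotransferase that makes L-selectin ligands, was at 5.08 FPKM in P6 and at most 0.284 FPKM in the others. *F11r*, which encodes the junction molecule JAM-A, was at 2.28, 5.23, 13.2, 38.6, 42.2 and 70.6 FPKM, the same order as the population numbers. Mesothelial marker sums were also higher in P4 to P6, and their part in these values was not tested.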
